A study of Mus musculus with 16 samples.

Results

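The EGF family signals through ligands made as membrane-bound precursors, which sheddases cut free, and through receptor tyrosine kinases that pair when a ligand binds. Egfr and Erbb3 bind ligand, Erbb2 has no known ligand of its own and acts as a preferred partner, and the paired receptors feed the Ras/ERK and PI3K/Akt cascades. In the intestine these signals drive epithelial growth and repair, and several ligand genes are themselves switched on by ERK, as are the inhibitors that shut the pathway down again. The genes described here are the ligands Btc, Areg, Ereg, Hbegf, Tgfa and Nrg1 and the receptors Egfr, Erbb2 and Erbb3, taken at every probe set that carried one of these symbols alone in the platform's annotation. Of these 9 genes, 8 were found, at 19 of the 45037 probe sets tested, among 18193 named genes. Areg (amphiregulin) had no such probe set and was not analysed here. The group was drawn up after Btc had been seen to be high in shTR1/shSep15 cells, so the Btc values of that line chose it and are given below without a test.

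The samples were 16 Affymetrix mouse expression arrays of CT26 cells, a colon carcinoma line from BALB/c mice, stably transfected with the pU6-m3 hairpin vector and kept under hygromycin B selection. The lines were shSep15 cells (a hairpin against the selenoprotein gene Sep15, listed as Selenof), shTR1 cells (a hairpin against thioredoxin reductase 1, Txnrd1), shTR1/shSep15 cells (both hairpins) and control cells with the empty vector, with 4 arrays each. The question was how lowering either selenoprotein, or both, changed gene expression in colon cancer cells. The 4 arrays of a line came from 4 different RNA samples, which no source used here ties to separate cultures or clones, so p-values measure the spread between these samples, which may be technical, and a line cannot be told apart from the transfected clone or pool it came from.

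The hairpins were aimed at the following stretches of the mouse cDNAs, 22 and 19 bases long, shown because they define the lines.
Txnrd1 hairpin target: atcgctctgacaagcttattag
Selenof hairpin target: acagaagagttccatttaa
Selenof, a thioredoxin-fold protein of the endoplasmic reticulum, measured 8.02 to 8.29 in shSep15 cells, 11.57 to 12.36 in shTR1 cells, 7.34 to 7.86 in shTR1/shSep15 cells and 10.78 to 11.57 in control cells, all as log2 signals after RMA, the scale used for every level below (1 unit is a 2-fold step). Txnrd1, which keeps thioredoxin reduced, was read at its brightest probe set, 1421529_a_at. It measured 9.54 to 10.62 in shSep15 cells, 7.84, 10.57, 7.89 and 9.71 on the arrays labelled shTR1, 7.18 to 7.91 in shTR1/shSep15 cells and 9.45 to 10.39 in control cells. At that probe set the arrays labelled shTR1 replicates 2 and 4 therefore lay at the control level of their hairpin's target, which goes against their label. At the dimmer 1424486_a_at the shTR1 arrays measured 4.62, 5.24, 4.76 and 5.58 and control cells 5.51 to 6.58. Replicate 2 lay below all control arrays there and replicate 4 did not. At the dimmest, 1424487_x_at, they measured 3.42, 3.56, 3.08 and 3.48, against 3.54 to 4.09 in control cells. Txnrd1 levels below are those of the brightest probe set. The line is called shTR1 below by its label alone, and its differences from control are also given without these arrays for each of the 8 genes. Control replicate 2 stood apart from the other control arrays and had the lowest array weight of the 16 (0.244); it is described with the ligands it touches.

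CT26 cells are labelled as colon carcinoma, and its epithelial markers were uneven. Cdh1 (E-cadherin) lay between 2.31 and 2.80 and Cldn7 between 3.70 and 4.15 on all arrays, while Epcam lay between 5.44 and 6.59, Krt18 between 2.89 and 8.90 and Krt20 between 4.76 and 9.49 (7.55 to 9.49 in control cells). For scale, 3 control probe sets for a bacterial tryptophan gene, which has no counterpart in mouse RNA, lay between 2.51 and 3.29. Fibroblast markers were uneven too: the fibrillar collagen gene Col1a2 lay between 10.07 and 12.25, its partner Col1a1 between 4.95 and 6.47 and lumican (Lum) between 2.93 and 3.46. The pan-leukocyte marker Ptprc stayed between 2.42 and 3.09 and the endothelial marker Pecam1 between 2.98 and 3.48, while the lysosomal protein Cd68, common in macrophages, ranged from 4.38 to 9.06. These are bulk samples, in which fewer cells expressing a gene and less RNA per cell cannot be told apart.

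Btc encodes betacellulin, a ligand that binds Egfr and Erbb4. At its brighter probe set, 1435541_at, Btc measured 4.27, 4.25, 4.64 and 4.49 in shSep15 cells, 7.17, 5.67, 5.07 and 4.99 in the line labelled shTR1, 7.24, 6.16, 7.49 and 6.52 in shTR1/shSep15 cells and 4.40, 4.66, 4.46 and 4.15 in control cells. The shSep15 and control arrays lay together at the low end, the shTR1/shSep15 arrays were all far above both, and the shTR1 arrays spread over the space between, with replicate 1 inside the shTR1/shSep15 range. The means were 4.41 ± 0.19 in shSep15 cells, 5.72 ± 1.01 in shTR1 cells, 6.85 ± 0.62 in shTR1/shSep15 cells and 4.41 ± 0.21 in control cells (SD, n = 4 each). As a description of the values that chose the gene, shTR1/shSep15 exceeded control by 2.44 (SE 0.39), a 5.42-fold higher signal with no overlap (as at 3.12% of all probe sets), and shSep15 by 2.44, while the 1.13 by which it exceeded shTR1 (0.74 without shTR1 replicates 2 and 4) came with overlapping arrays.

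The second Btc probe set, 1421161_at, set the same 8 arrays above the rest. It measured 3.10, 2.79, 2.72 and 3.03 in shSep15 cells, 6.30, 3.28, 3.46 and 3.19 in shTR1 cells, 5.25, 3.50, 4.83 and 3.96 in shTR1/shSep15 cells and 2.82, 3.11, 2.96 and 2.78 in control cells. The shSep15 and control arrays sat inside the range of the bacterial control probe sets, and 2 of the shTR1 arrays, replicates 2 and 4, did so as well. At both probe sets all 8 arrays labelled with the TR1 hairpin lay above all 8 labelled without it, as at 37 of the 45037 probe sets (0.0822%), although Txnrd1 at its brightest probe set was at the control level on 2 of those 8 (10.57 and 9.71 in shTR1 replicates 2 and 4) and their order at 1421161_at lies within the background range. Since 4 of those 8 are the shTR1/shSep15 arrays that brought Btc to notice, that share is a description too.

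**Figure D1:**
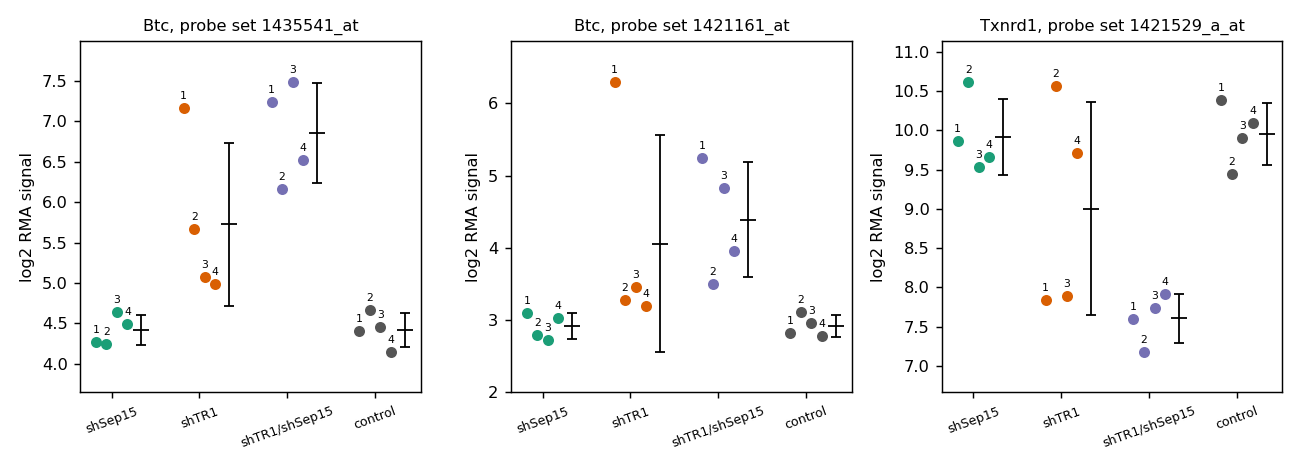
Log2 RMA signal of Btc at its 2 probe sets and of Txnrd1, with 1 point per array (numbered by replicate) for shSep15, shTR1, shTR1/shSep15 and control cells, and the mean with its SD beside them. Btc was highest in shTR1/shSep15 cells and spread widely in shTR1 cells, where replicate 1 reached 7.17. Txnrd1 at its brightest probe set, the one drawn, stayed at the control level in shTR1 replicates 2 and 4.

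The comparisons of Btc between the other lines could be tested, although the fit's shared estimate of the spread also drew on the shTR1/shSep15 arrays. Against control cells, Btc was 1.31 higher in shTR1 cells at 1435541_at (SE 0.39, 95% interval 0.46 to 2.15, 2.48-fold, unadjusted p = 0.00488), with all 4 arrays above all 4 control arrays, as at 2.5% of all probe sets. After Benjamini-Hochberg adjustment over all probe sets in limma it did not pass (adjusted p = 0.209). No difference is given at 1421161_at, where the control arrays were not above the bacterial control probe sets. In shSep15 cells Btc lay 1.31 below shTR1 cells (95% interval -2.16 to -0.47, adjusted p = 0.22), with no overlap, as at 3.04% of all probe sets, and stood 0.00 from control (95% interval -0.85 to 0.84, adjusted p = 0.998). The shTR1 and shSep15 differences from control share the same 4 control arrays. In limma fits of the 2 compared lines alone, adjusted p was 0.597 for shTR1 against control. It was 0.352 for shSep15 against shTR1.

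How far the shTR1 difference rests on single arrays can be read from the values. Without shTR1 replicate 1 it was 0.83, against 1.31 with all arrays, and over the 16 fits that each left out 1 array it ran between 0.83 and 1.55 with adjusted p between 0.143 and 0.449. Without replicates 2 and 4, in which Txnrd1 was not lowered at its brightest probe set, it was 1.70 (adjusted p = 0.375), and shSep15 cells then lay 1.71 below shTR1 cells (adjusted p = 0.229). Among the shTR1 arrays, Btc and Txnrd1 did not line up one for one: replicates 1 and 3 shared a low Txnrd1 (7.84 and 7.89) but differed in Btc (7.17 and 5.07), and replicate 2, with Txnrd1 at 10.57, had more Btc (5.67) than replicate 3.

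Btc lies on mouse chromosome 5 in a cluster with the ligand genes Areg, Ereg and Epgn (epigen). The RefSeq promoter table held 5 of the 9 genes of the group, with Btc among them, and the 250 bases before its start are printed because Btc is the ligand the lines differ in most (GRCm38.p6, chr5:91402995-91403244, minus strand, written 5′ to 3′ along the gene). Capitals mark E boxes (CANNTG) and CACCC boxes (CCNCNCCC), read on both strands.
Btc, upstream: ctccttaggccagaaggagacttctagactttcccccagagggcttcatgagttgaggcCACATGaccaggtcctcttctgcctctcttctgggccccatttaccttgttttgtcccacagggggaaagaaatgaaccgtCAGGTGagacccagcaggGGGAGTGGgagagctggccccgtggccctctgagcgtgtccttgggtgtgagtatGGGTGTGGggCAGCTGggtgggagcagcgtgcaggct
The 3 E boxes lay at -191, -110 and -27 from the start (first base of each) and the 2 CACCC boxes at -92 and -37. Such letters are common, since 66.2% of the 32851 promoters of this length held an E box and 45.9% a CACCC box. The window held no AP-1 motif (TGANTCA, in 6.75% of promoters), cAMP response element (TGACGTCA, 1.55%), antioxidant response element core (TGACNNNGC, 10.2%), TATA box (TATAAA, 12.4%), GC box (GGGCGG, 32.7%) or TCF motif (CTTTGAT, 3.21%), all searched on both strands. An AP-1 motif and an antioxidant core can share bases, and these matches are descriptions of letters, not of binding.

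The measured neighbours of Btc differed less between the lines than Btc did. Epgn, a ligand of Egfr, averaged 3.64 ± 0.19 in shSep15 cells, 3.43 ± 0.12 in shTR1 cells, 3.74 ± 0.11 in shTR1/shSep15 cells and 3.69 ± 0.14 in control cells (SD, n = 4 each). Parm1, the next gene on the other side, averaged 4.09 ± 0.36 in shTR1/shSep15 cells and 3.90 ± 0.08 in control cells. Of the 3 nearest measured genes on each side, Mthfd2l, a mitochondrial folate enzyme, had the largest difference between shTR1/shSep15 and control cells, 0.57. It averaged 7.88 ± 0.25 in shSep15 cells, 8.48 ± 0.23 in shTR1 cells, 8.59 ± 0.28 in shTR1/shSep15 cells and 8.01 ± 0.95 in control cells (SD, n = 4 each), with the same lines at the top as Btc. Ereg, the nearest measured gene on that side, is described after the genes most like Btc. These neighbours were chosen by position after their values had been seen.

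The genes whose levels ran most like those of Btc over the 16 arrays were Slc14a1 (a urea transporter, Pearson r = 0.91, Spearman rho = 0.78), Thbs2 (thrombospondin 2, r = 0.91, rho = 0.86), Tnc (tenascin C, r = 0.90, rho = 0.66), Ngef (r = 0.90, rho = 0.80) and Syt7 (a synaptotagmin, r = 0.87, rho = 0.78). They were the first 5 of 2379 genes with a mean of at least 4.52 and a range of at least 2. The ranking used the shTR1/shSep15 values of Btc that chose the group, so it favoured genes high in that line. Their averages followed the same line order at the top, as with Thbs2, at 5.40 in shSep15 cells, 7.42 in shTR1 cells, 8.05 in shTR1/shSep15 cells and 5.99 in control cells. Without the 2 arrays farthest from the Btc median, shTR1/shSep15 replicates 1 and 3, r lay between 0.85 and 0.95. The arrays fall into lines, so these coefficients describe a shared order of 4 lines more than 16 separate points, and no p is given.

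Ereg encodes epiregulin, a ligand of Egfr and Erbb4 whose gene sits beside Areg and Btc. Ereg (1419431_at) measured 10.03, 9.62, 9.43 and 9.61 in shSep15 cells, 10.47, 9.89, 10.50 and 9.73 in shTR1 cells, 10.39, 9.65, 10.37 and 10.26 in shTR1/shSep15 cells and 9.43, 11.94, 9.29 and 9.14 in control cells. One control array, replicate 2, was the highest of all 16 and the other control arrays were the lowest, so that the control line spanned all the others. With all arrays, Ereg differed from control by -0.28 in shSep15 cells (adjusted p = 0.864), 0.20 in shTR1 cells (0.873) and 0.22 in shTR1/shSep15 cells (0.958). Without shTR1 replicates 2 and 4 the shTR1 difference was 0.54 (adjusted p = 0.879).

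Without control replicate 2 the Ereg picture changed. The remaining control arrays averaged 9.29, and the differences became 0.39 in shSep15 cells (95% interval -0.09 to 0.86), 0.86 in shTR1 cells (0.38 to 1.34) and 0.88 in shTR1/shSep15 cells (0.40 to 1.36). All 12 knockdown arrays then lay above the control arrays that were left, by less than 0.01 in the case of shSep15 replicate 3, as did those of 0.389% of all probe sets. None passed adjustment in limma even so (adjusted p = 0.515, 0.138 and 0.4 in the same order), and the array was left out because of its own values, which makes this a description of how much hangs on it.

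Hbegf, the heparin-binding ligand of Egfr and Erbb4, showed the same array. At 1418350_at it measured 9.45, 9.29, 8.61 and 8.43 in shSep15 cells, 9.38, 8.10, 9.65 and 9.60 in shTR1 cells, 9.84, 9.04, 9.39 and 9.06 in shTR1/shSep15 cells and 9.50, 11.50, 8.05 and 9.50 in control cells. Control replicate 2 exceeded every other array, while control replicate 3 was the lowest of the 16. The differences from control were -0.69 (SE 0.55) in shSep15 cells, -0.46 in shTR1 cells and -0.30 in shTR1/shSep15 cells with all arrays, and -0.07, 0.16 and 0.31 without control replicate 2. In shTR1 cells without replicates 2 and 4 it was -0.12 (adjusted p = 0.976). The dimmer probe set, 1418349_at, gave 10.16 in control replicate 2 and 7.21 to 8.70 elsewhere. Its differences from control were -0.59, -0.17 and 0.04 in shSep15, shTR1 and shTR1/shSep15 cells. Without control replicate 2 they were 0.00, 0.42 and 0.63, the last with an adjusted p of 0.894 in limma.

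Nrg1, a neuregulin that binds Erbb3 and Erbb4, repeated this at its one probe set, 1456524_at. It measured 6.64, 5.90, 6.17 and 6.43 in shSep15 cells, 5.70, 6.87, 6.57 and 6.30 in shTR1 cells, 6.12, 6.14, 6.24 and 6.52 in shTR1/shSep15 cells and 6.40, 8.11, 6.37 and 5.91 in control cells. Apart from control replicate 2 the 4 lines overlapped. The differences from control, -0.41, -0.34 and -0.45 in shSep15, shTR1 and shTR1/shSep15 cells, were 0.06, 0.13 and 0.03 without that array. The shTR1 difference was -0.56 without shTR1 replicates 2 and 4 (adjusted p = 0.855).

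Tgfa, transforming growth factor alpha, a ligand of Egfr, was low in control replicate 2. At 1421943_at it measured 5.11, 4.02, 5.76 and 6.01 in shSep15 cells, 6.36, 6.42, 5.80 and 5.69 in shTR1 cells, 5.82, 5.66, 5.98 and 6.02 in shTR1/shSep15 cells and 6.18, 4.33, 5.57 and 5.95 in control cells. Replicate 2 of shSep15 and replicate 2 of control were the lowest of the 16, and the other arrays overlapped across lines. The differences from control were -0.28 in shSep15 cells, 0.55 in shTR1 cells and 0.36 in shTR1/shSep15 cells. Without control replicate 2 they were -0.67, 0.16 and -0.03. Tgfa was 0.84 lower in shSep15 cells than in shTR1 cells (95% interval -1.72 to 0.05, unadjusted p = 0.0623, adjusted p = 0.685). Its other probe sets did not carry this spread: 1421942_s_at lay between 4.92 and 5.26 and 1450421_at between 4.51 and 5.19 over all arrays.

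**Figure D2:**
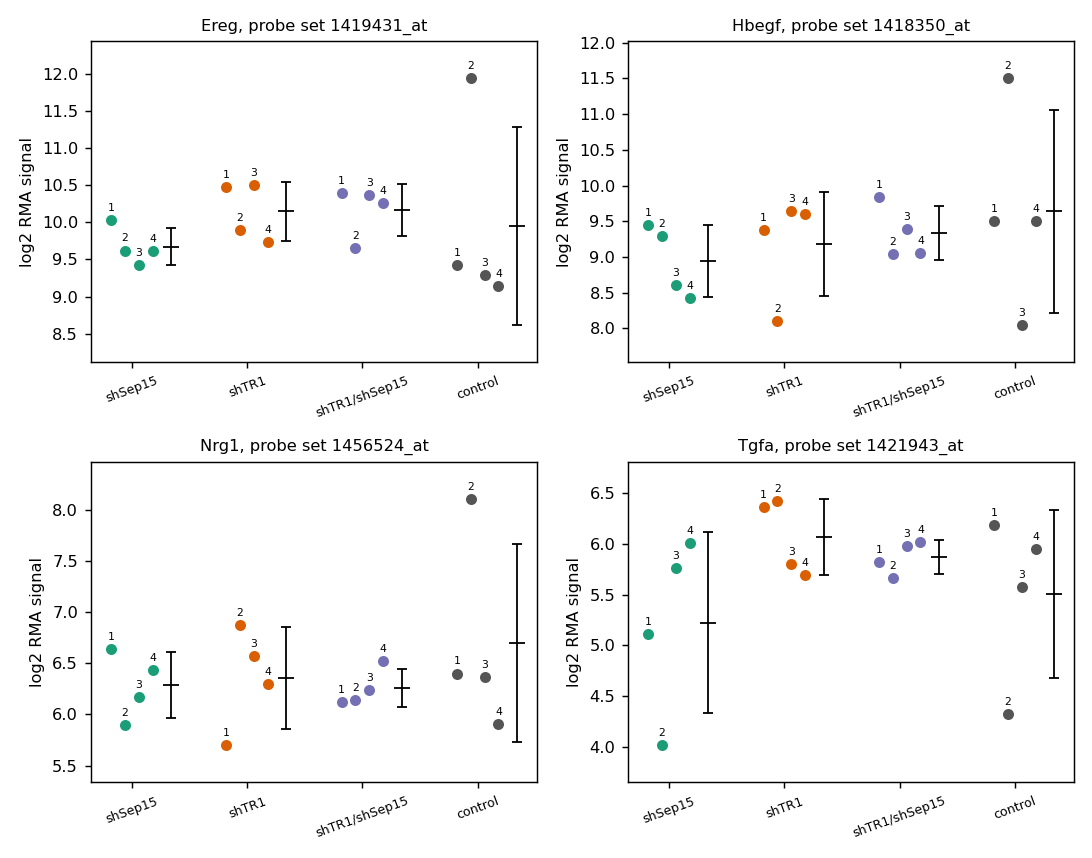
Log2 RMA signal of Ereg, Hbegf, Nrg1 and Tgfa at the brightest probe set of each, with 1 point per array (numbered by replicate) for shSep15, shTR1, shTR1/shSep15 and control cells, and the mean with its SD. Control replicate 2 was the highest array for Ereg (11.94), Hbegf (11.50) and Nrg1 (8.11) and lay at 4.33 for Tgfa, where the other control arrays lay between 5.57 and 6.18.

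In control replicate 2, 4 of the 19 EGF family probe sets (Ereg, Nrg1 and both of Hbegf) stood at least 1 above all other control arrays, as did 3.76% of all probe sets, and 1 (Tgfa) stood at least 1 below them, as did 3.18%. Genes that ERK signalling switches on stood out on the same array. Of 15 such genes, 11 exceeded the other control arrays by at least 1, among them the transcription factor genes Fos (13.52, against 5.41 to 8.02 on the other control arrays), Fosb (11.11, against 3.54 to 4.57) and Egr2 (10.68, against 3.64 to 3.84). Etv4 and Etv5, ETS transcription factor genes of the same list, were lower there, at 6.11 against 7.03 to 7.11 and at 5.85 against 6.90 to 7.42.

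Feedback inhibitors of the pathway shared part of this. Of 17 listed, 6 exceeded the other control arrays by at least 1 in control replicate 2, beside 3.76% of all probe sets. They included Errfi1, which binds and blocks Egfr (12.59, against 9.14 to 10.25), Spry2, a Sprouty protein (10.16, against 6.49 to 7.97), and Dusp5, a nuclear ERK phosphatase (10.48, against 7.58 to 8.38). Among the proteins that free ligands from the membrane, Rhbdf2, a partner of the sheddase Adam17, was at 8.76, against 6.41 to 7.08. The downstream kinase Akt1 went the other way, at 7.73, against 9.34 to 9.81. Whether the ligands and these genes were high on that array for a shared reason was not tested.

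Egfr, the receptor for Btc, Ereg, Hbegf and Tgfa, had 7 probe sets. At the brightest, 1460420_a_at, it measured 6.50, 6.80, 6.28 and 6.13 in shSep15 cells, 6.59, 6.05, 6.10 and 6.43 in shTR1 cells, 6.18, 6.89, 6.34 and 6.51 in shTR1/shSep15 cells and 6.18, 6.70, 6.93 and 6.81 in control cells. All 4 lines overlapped. Egfr differed from control by -0.23 in shSep15 cells (95% interval -0.65 to 0.20), -0.37 in shTR1 cells (-0.79 to 0.06, unadjusted p = 0.0866, adjusted p = 0.471) and -0.18 in shTR1/shSep15 cells (-0.60 to 0.25). At 3 of its probe sets, 1424932_at, 1435888_at and 1457563_at, no array exceeded the bacterial control probe sets, as at 14.9% of all probe sets, so only the other 4 can show a change. Of those, 1432647_at differed from control by -0.06, -0.08 and 0.03 in shSep15, shTR1 and shTR1/shSep15 cells. In the same order 1454313_at gave -0.11, -0.33 and 0.01, and 1451530_at gave -0.13, -0.33 and -0.02. Arrays overlapped in each case.

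Erbb2 (1424919_at) varied least among the brightest probe sets of the 3 receptors. It measured 6.58, 6.16, 6.65 and 6.45 in shSep15 cells, 6.56, 6.36, 6.38 and 6.25 in shTR1 cells, 6.64, 6.48, 6.47 and 6.45 in shTR1/shSep15 cells and 6.44, 6.12, 6.42 and 6.48 in control cells. The lines overlapped throughout, and the 95% intervals of the differences from control were -0.15 to 0.34 in shSep15 cells, -0.22 to 0.27 in shTR1 cells and -0.10 to 0.39 in shTR1/shSep15 cells.

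Erbb3, a ligand-binding receptor with an impaired kinase that signals through its partners, was the only member, Btc not being tested, whose double knockdown departed from the sum of the single ones at an unadjusted p under 0.05. That was 1 of 17 probe sets tested, where limma called 16% of all probe sets, so the count does not set the group apart. At 1434606_at it measured 4.61, 4.30, 5.04 and 4.55 in shSep15 cells, 4.59, 4.64, 3.98 and 4.95 in shTR1 cells, 4.12, 4.01, 4.36 and 4.56 in shTR1/shSep15 cells and 4.22, 4.30, 4.38 and 4.15 in control cells. The single knockdown lines averaged above control, by 0.36 in shSep15 cells (adjusted p = 0.486) and 0.28 in shTR1 cells (0.555), and the double knockdown did not, at 0.00. The departure from additivity (shTR1/shSep15 minus shSep15 minus shTR1 plus control) was -0.64 (95% interval -1.22 to -0.05, unadjusted p = 0.0351) and did not pass adjustment (adjusted p = 0.268). Without shTR1 replicates 2 and 4, in which Txnrd1 was at the control level, the shTR1 difference was 0.02 (adjusted p = 0.989) and the departure from additivity -0.38 (95% interval -0.99 to 0.23, unadjusted p = 0.199), so the pattern rests in part on those arrays. The second probe set, 1452482_at, averaged 4.32, 4.30, 4.33 and 4.44 in shSep15, shTR1, shTR1/shSep15 and control cells, without this pattern.

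**Figure D3:**
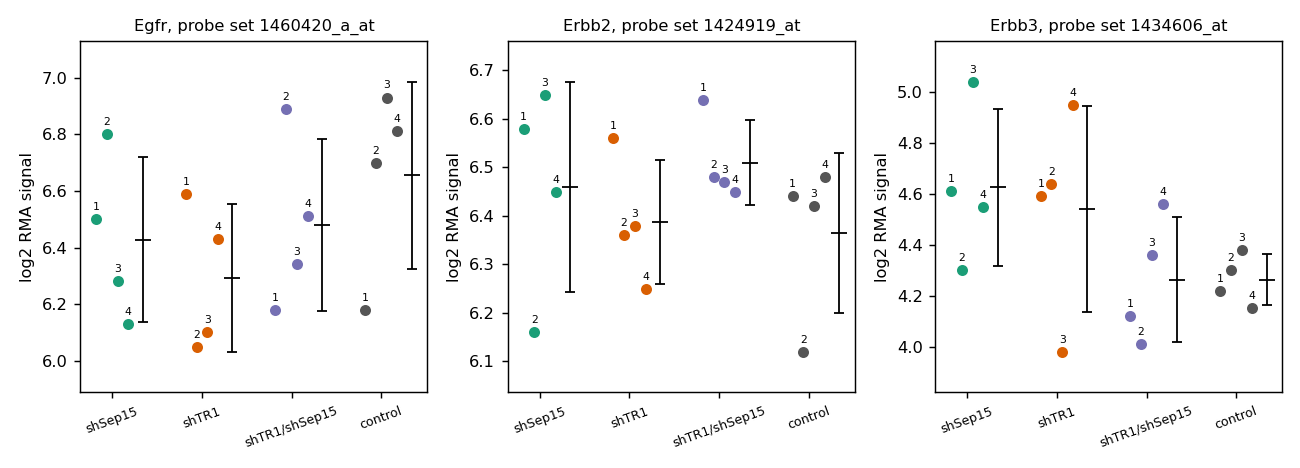
Log2 RMA signal of Egfr, Erbb2 and Erbb3 at the brightest probe set of each, with 1 point per array (numbered by replicate) for shSep15, shTR1, shTR1/shSep15 and control cells, and the mean with its SD. The lines overlap for all 3 receptors, and Erbb2 stays between 6.12 and 6.65.

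Counted over the group, no EGF family probe set passed limma's adjusted p of 0.05 in any comparison. In shSep15 against control it was 0 of 19, where 1.97% of all probe sets passed, and in shTR1 against control 0 of 19, where 0.18% did. In shTR1/shSep15 against control it was 0 of the 17 probe sets outside Btc, where 0.0244% of all probe sets passed. At an unadjusted p under 0.05 the counts were 0, 1 and 0, both in limma and in the unmoderated linear model of the study's methods, the 1 being Btc, where 12.7%, 11.8% and 8.14% of all probe sets were called by limma in the 3 comparisons. Tgfa, Egfr and Erbb2 differed from control by 0.57, -0.32 and 0.10 in shTR1 cells without shTR1 replicates 2 and 4, against 0.55, -0.37 and 0.02 with them.

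Between the knockdown lines the counts were again 0. In shTR1/shSep15 against shSep15 none of 17 passed (2.66% of all probe sets), in shTR1/shSep15 against shTR1 none of 17 (0.0733%), in shSep15 against shTR1 none of 19 (0.648%), and for non-additivity none of 17 (2.85%). At an unadjusted p under 0.05 the counts were 0, 0, 1 and 1 in both tests, the calls being Btc and Erbb3, beside 13.3%, 10.4%, 7.87% and 16% of all probe sets in limma. Groups that did not overlap were few outside Btc: Hbegf at 1418349_at (8.43 ± 0.20 in shTR1/shSep15 cells and 7.80 ± 0.36 in shSep15 cells, SD, n = 4 each, adjusted p = 0.674) and Tgfa at 1450421_at (4.85 ± 0.23 and 4.62 ± 0.08 in the same order, adjusted p = 0.494), 2 of 17 against 7.11% of all probe sets.

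**Figure D4:**
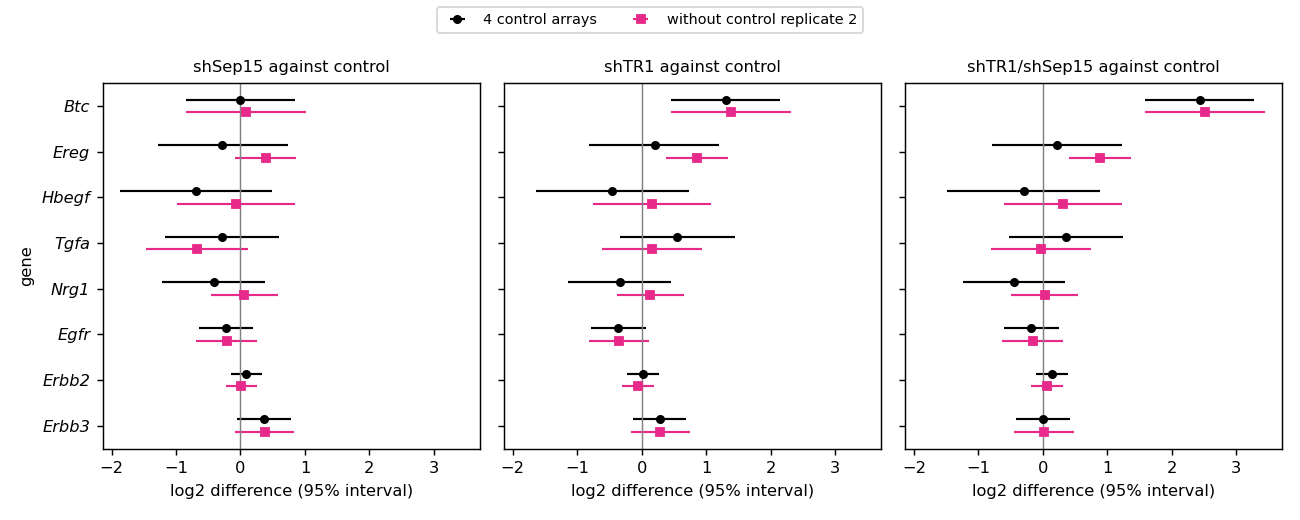
Log2 difference from control, with its 95% interval, of the 8 genes at their brightest probe set in shSep15, shTR1 and shTR1/shSep15 cells, with all 4 control arrays (circles) and without control replicate 2 (squares). Btc stood 2.44 above control in shTR1/shSep15 cells and 1.31 in shTR1 cells. When control replicate 2 was left out, Ereg, Hbegf and Nrg1 moved to the right and Tgfa moved to the left.

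The other ligand and receptor genes (Egf, Epgn, Nrg2, Nrg3, Nrg4 and Erbb4) gave no change past limma's adjusted threshold in any knockdown line, 0 of 6 measured, and at an unadjusted p under 0.05 only 1 was higher in shSep15 cells (Egf) and 1 lower in shTR1 cells (Epgn), where 12.7% and 11.8% of all probe sets were called. The nearest was Egf, the founding ligand, at 4.20 to 4.72 in shSep15 cells and 3.67 to 4.49 in control cells (difference 0.41, adjusted p = 0.317). Erbb4, the other receptor for Btc, Ereg and Hbegf, lay between 2.55 and 3.33 on all arrays, close to the range of the bacterial control probe sets. In shTR1/shSep15 cells the median difference of these 6 genes from control was 0.00, against -0.01 over all probe sets.

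Among 11 genes for shedding and ligand processing, none passed in limma in any line, and at an unadjusted p under 0.05 1 was higher and 1 lower in shSep15 cells, 1 higher and 1 lower in shTR1 cells and 1 higher in shTR1/shSep15 cells, beside 12.7%, 11.8% and 8.14% of all probe sets called in shSep15, shTR1 and shTR1/shSep15 cells. Adam9, a membrane metalloprotease, was 0.77 higher in shTR1 cells than in control cells (adjusted p = 0.258), and Rhbdf1, an inactive rhomboid protein, was 0.75 lower in shSep15 cells (adjusted p = 0.162) and 0.67 lower in shTR1 cells (adjusted p = 0.3). Without control replicate 2 these differences were 0.57, -0.44 and -0.37. The median of the list was -0.09 in shSep15 cells, -0.09 in shTR1 cells and -0.11 in shTR1/shSep15 cells, beside -0.03, -0.04 and -0.01 over all probe sets.

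Among adaptors and kinases, 23 of 29 listed genes were measured and 1 rose, in shSep15 cells, where 1.97% of all probe sets passed. At an unadjusted p under 0.05, 4 were higher and 0 lower in shSep15 cells, 3 and 0 in shTR1 cells and 2 and 1 in shTR1/shSep15 cells, beside 12.7%, 11.8% and 8.14% of all probe sets. Nras, a Ras GTPase, was 0.75 higher in shSep15 cells (8.85 to 9.39) than in control cells (7.96 to 8.69; SE 0.18, adjusted p = 0.0484 in limma), and the call held in 4 of the 16 fits that each left out 1 array (difference 0.60 to 0.86, adjusted p 0.0256 to 0.148). It was lost without any 1 of control replicates 1, 2 and 4, shSep15 replicates 1, 3 and 4, shTR1 replicates 2 and 4 or an array of shTR1/shSep15 cells. Gab2, a docking protein, was 1.10 higher in shTR1 cells (adjusted p = 0.153), and Sos1, a Ras exchange factor, 1.01 higher in shSep15 cells (adjusted p = 0.269). The list's median difference was 0.24 in shSep15 cells, 0.21 in shTR1 cells and 0.12 in shTR1/shSep15 cells with all arrays, and 0.06, 0.08 and 0.00 without control replicate 2.

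Neither feedback inhibitors nor ERK-responsive genes passed in limma in any line (0 of 17 and 0 of 15). At an unadjusted p under 0.05, 1 feedback inhibitor was higher and 1 lower in shSep15 cells and 4 were higher in shTR1 cells, and 1 ERK-responsive gene was higher and 1 lower in shTR1/shSep15 cells, where 12.7%, 11.8% and 8.14% of all probe sets were called in shSep15, shTR1 and shTR1/shSep15 cells. Dusp4, an ERK phosphatase, was 1.04 higher in shTR1 cells than in control cells (adjusted p = 0.395). Fos, the most variable of the ERK-responsive genes, was 1.93 lower in shSep15 cells, 2.35 lower in shTR1 cells and 3.01 lower in shTR1/shSep15 cells than in control cells (adjusted p = 0.59, 0.467 and 0.563), and 0.25, 0.67 and 1.33 lower without control replicate 2. For the ERK-responsive list the median difference turned from -0.39, -0.24 and -0.50 with all arrays to 0.23, 0.34 and 0.12 without that array, in shSep15, shTR1 and shTR1/shSep15 cells, beside -0.02, -0.03 and -0.01 over all probe sets without it. The median of the feedback inhibitors was -0.03, 0.13 and -0.05 with all arrays and 0.16, 0.40 and 0.22 without it. The mean signal of the ERK-responsive list was 10.91 in control replicate 2 and 7.69 to 8.56 on the other 15 arrays.

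**Figure D5:**
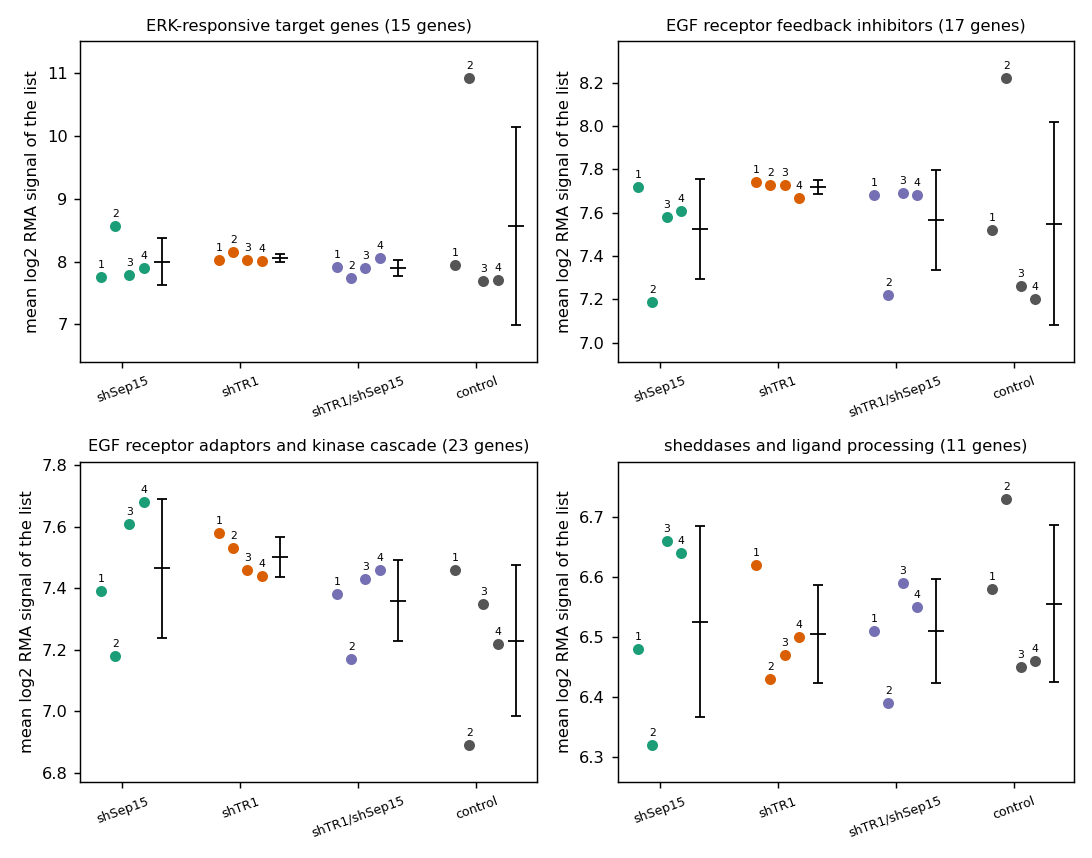
Mean log2 RMA signal of 4 gene lists around the EGF receptor on each array (numbered by replicate) of shSep15, shTR1, shTR1/shSep15 and control cells, with the mean of each line and its SD. In control replicate 2 the ERK-responsive genes averaged 10.91 and the feedback inhibitors 8.22, the highest of the 16 arrays, while adaptors and kinases averaged 6.89, the lowest.

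A few cell type markers changed in shSep15 cells, where Btc stood at the control level. Krt18 and Krt20, keratins of simple and intestinal epithelium, fell by 2.68 (adjusted p = 0.039) and by 3.28 (adjusted p = 0.00155) in shSep15 cells, 2 of 9 epithelial markers, and Col3a1, a fibrillar collagen, fell by 3.04 (adjusted p = 0.0307), 1 of 7 fibroblast markers, where 1.97% of all probe sets passed. Fibroblast markers went both ways in shSep15 cells, with 4 positive and 3 negative differences, among them Pdgfra, a receptor for platelet-derived growth factor, at 5.55 ± 1.01 in shSep15 cells and 4.26 ± 0.32 in control cells (SD, n = 4 each, adjusted p = 0.132). Over fits that each left out 1 array, Krt20 passed in all 16, Col3a1 in 10 (adjusted p 0.00175 to 0.0985, lost without control or shSep15 replicate 1, 3 or 4) and Krt18 in 3 (2.15e-05 to 0.129, kept only without shTR1 replicate 1, 2 or 3).

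None of the measured leukocyte (7) or endothelial (5) markers passed in limma in any line, and no marker passed in shTR1 or shTR1/shSep15 cells. At an unadjusted p under 0.05, 3 epithelial markers were lower in shSep15 cells and 1 higher in shTR1 cells, and 1 fibroblast marker was higher and 2 lower in shSep15 cells and 1 higher and 1 lower in shTR1 cells. At that threshold 1 leukocyte marker was higher and 1 lower in shTR1 cells and 1 higher in shTR1/shSep15 cells, and 1 endothelial marker was lower in shSep15 cells and 1 higher in shTR1 cells. Over all probe sets, 12.7%, 11.8% and 8.14% were called at that threshold in shSep15, shTR1 and shTR1/shSep15 cells.

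Some markers averaged higher in the 2 lines in which Btc was high, but their lists went both ways. In shTR1 cells 2 epithelial markers were higher and 7 lower than in control cells, 3 and 4 fibroblast markers, and 2 and 5 leukocyte markers. In shTR1/shSep15 cells the counts were 4 and 4, 6 and 1, and 4 and 3. Among fibroblast markers, Col3a1 had the largest difference in shTR1 cells, -2.16 (adjusted p = 0.223), and -0.88 without shTR1 replicates 2 and 4. Cd68 was 2.67 higher in shTR1 cells (5.83 to 9.06) and 1.35 higher in shTR1/shSep15 cells (6.55 to 6.97) than in control cells (4.69 to 6.53; adjusted p = 0.101 and 0.587), and the shTR1 difference was 1.95 without shTR1 replicates 2 and 4 (adjusted p = 0.576). Krt18 differed from control by 1.64 in shTR1 cells (adjusted p = 0.328; 0.80 without those arrays) and 0.50 in shTR1/shSep15 cells (0.9), and Pdgfra by 1.52 (0.14) and 0.52 (0.799) in the same order. Pdgfra also averaged above control in shSep15 cells, where Btc did not. The mean of the 7 leukocyte markers ranged from 4.27 to 4.63 in shSep15 cells, 4.21 to 5.10 in shTR1 cells, 4.55 to 4.89 in shTR1/shSep15 cells and 4.14 to 4.72 in control cells, with Ptprc near the level of the bacterial control probe sets, and the part of these markers in the Btc values was not tested.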

How the data were processed

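Gene expression was measured in 16 samples on Affymetrix mouse arrays. The authors converted probe signals with RMA (background correction, normalization and summary; version not given in the sources used here) and deposited log2 signals for 45101 probe sets. Without the 64 manufacturer control probe sets, 45037 remained for the tests, of which 34945 carried 1 gene symbol, 932 several and 9160 none, and only those with 1 were named. Scanner files were not used here, so detection calls and the RMA step were not checked, and RMA signals understate changes near background.

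Lines were compared in limma 3.58.1 under R 4.3.3. The fit held all 16 arrays and 1 mean per line, with Benjamini-Hochberg adjustment over all probe sets, a threshold of 0.05 and 95% intervals. The step was tested on simulated data. Where a gene had several probe sets, the brightest stood for it. For EGF family genes the other probe sets are described too, and for list genes they are not. Named genes were all members, list genes past the threshold or among the 2 largest differences of a comparison, and the 5 genes most like Btc. The members and lists were chosen with earlier results of these data known. Alternatives were an intensity trend, fitting the compared lines alone, median centring, quantile normalization, bright probe sets alone, the replicate number as a block, array weights, the methods' ANOVA (an unmoderated linear model), the mean of a gene's probe sets, each array left out, and shTR1 replicates 2 and 4 left out. The number of arrays limits the precision. Promoters and gene order came from RefSeq (GRCm38.p6); figures were drawn with matplotlib.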

Additional observations from a re-analysis of the deposited data

Results flagged for a closer look

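Among 76 sets of 4 arrays (19 EGF family probe sets in 4 lines), 6 held 1 array far from its line, where chance alone flags about 1 in 20. Btc at 1421161_at was 6.30 in shTR1 replicate 1, against 3.19 to 3.46 on the other shTR1 arrays, and Ereg was 11.94 in control replicate 2, against 9.14 to 9.43 on the other control arrays. Erbb2 was 6.12 in control replicate 2, against 6.42 to 6.48. Hbegf at 1418349_at was 7.50 in shTR1 replicate 2, one of the arrays in which Txnrd1 was not lowered at its brightest probe set, against 8.37 to 8.53. Smaller steps were seen for Egfr at 1451530_at, at 4.13 in shTR1/shSep15 replicate 2 against 3.70 to 3.78, and for Erbb3 at 1452482_at, at 4.18 in shTR1/shSep15 replicate 1 against 4.37 to 4.40. Outside Btc, which was not tested for this, no EGF family gene had a TR1 or Sep15 hairpin effect that differed, past adjustment in limma, with the other hairpin present.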

How the results depend on the processing

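Outside the Btc comparisons that were not tested, no EGF family probe set passed the adjusted threshold under any alternative. The methods' ANOVA at an unadjusted p under 0.05 called 1 in shTR1 against control, 1 in shSep15 against shTR1 and 1 for non-additivity. Over all 45037 probe sets it called 5037 in shTR1 against control. For shSep15 against shTR1 and non-additivity its calls over all probe sets were not counted, and limma called 7.87% and 16%. These counts do not set the group apart. With all arrays kept, some differences changed sign, the larger being -0.28 for Ereg in shSep15 cells, -0.34 for Nrg1 in shTR1 cells and -0.30 for Hbegf in shTR1/shSep15 cells in the main test. Larger ones changed sign without control replicate 2, such as Hbegf in shTR1 cells, from -0.46 to 0.16. Against control in shSep15 cells, Btc was 0.04 after median centring, 0.04 after quantile normalization and 0.16 with array weights, Ereg was 0.14 with array weights and Erbb2 was -0.01 after quantile normalization. In shTR1 cells Erbb2 was -0.12 after quantile normalization and -0.06 with array weights, and Nrg1 was 0.15 with array weights. In shTR1/shSep15 cells Hbegf was 0.17 with array weights and Erbb3 was -0.05 as the mean of its probe sets. The cause was not tested.

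Leaving out each array in turn, the differences from control in shSep15 cells ran from -0.09 to 0.08 for Btc, -0.55 to 0.39 for Ereg, -0.67 to 0.12 for Tgfa and -0.68 to 0.06 for Nrg1. In shTR1 cells they ran from -0.07 to 0.86 for Ereg, -0.98 to 0.16 for Hbegf, -0.60 to 0.13 for Nrg1 and -0.06 to 0.07 for Erbb2. In shTR1/shSep15 cells they ran from -0.05 to 0.88 for Ereg, -0.83 to 0.31 for Hbegf, -0.03 to 0.58 for Tgfa, -0.71 to 0.03 for Nrg1 and -0.10 to 0.09 for Erbb3, and from 2.23 to 2.67 for Btc.

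Counts over all probe sets moved. For shSep15, shTR1 and shTR1/shSep15 cells against control they were 885, 81 and 11 in the main test, 437 to 1176, 25 to 211 and 8 to 24 with single arrays left out, 345, 4 and 24 from the compared lines alone, 2616, 222 and 68 with array weights, and 5483, 5037 and 3368 by the methods' ANOVA unadjusted. After Benjamini-Hochberg adjustment that ANOVA called 556 in shSep15 and 53 in shTR1 cells. An intensity trend gave 48 in shTR1 and 18 in shTR1/shSep15 cells, and leaving out shTR1 replicates 2 and 4 gave 20 and 27. Replicate numbers did not pair the arrays across all lines: 8 of 24 same-numbered pairs deviated together with a correlation over 0.1 (range -0.528 to 0.466). Those of shSep15 with shTR1/shSep15 cells were all over 0.1, at 0.105, 0.466, 0.147 and 0.335 for replicates 1 to 4. With the replicate block, Btc in shTR1 against control kept its 1.31 (adjusted p = 0.215), and 2 calls outside the EGF family were lost, Nras (0.0528) and Col3a1 (0.054). Nras was also lost with an intensity trend (0.0845), quantile normalization (0.106), the compared lines alone (0.141), the adjusted ANOVA (0.09) and shTR1 replicates 2 and 4 left out (0.0745), and the adjusted ANOVA lost Krt18 (0.0944) and Col3a1 (0.0762).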
